A study of Mus musculus with 14 samples.

Results

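Germ cells of 7-day-old mouse testes without the histone demethylases Jmjd1a and Jmjd1b were compared with germ cells that kept 1 copy of each gene. Of the 14 libraries of the series, the comparison used 4, a pair from the double knockout (P7 DKO, genotype Vasa-Cre; Jmjd1a-/-; Jmjd1b-/-) and a pair from controls (P7 Ctrl, Vasa-Cre; Jmjd1a-/+; Jmjd1b-/+), all of the C57BL/6 strain. Both groups carry Cre under the germline driver Vasa, and the control is thus heterozygous, not wild type. The samples were chosen by their labelled age and genotype, and no measured value entered the choice. Each library is named as postnatal male germ cells of the testis, with no sort of the cells stated and no word on whether the replicates are separate animals. The spread behind the p-values was estimated over all 14 libraries. Besides the 4, these are day 3 libraries of control, double knockout, Jmjd1a knockout, Jmjd1b knockout and wild type. The p-values thus cover no more than the variation between replicates of these libraries, which may be technical. Of 24340 gene symbols, 12600 stood at 1 RPKM or more in at least 2 of the 4 libraries and were tested. RPKM is a read number per length of transcript, normalized to the number of mapped reads. Libraries of the same genotypes at day 3 (P3 Ctrl and P3 DKO, 2 each) are set beside the results where the change at day 7 differed from that at day 3.

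The 2 enzymes, whose genes the tables give as Kdm3a and Kdm3b, remove methyl groups from the H3K9 site, where methylation marks silent chromatin. In the first week after birth, prospermatogonia of the mouse give rise to stem spermatogonia, which renew under GDNF from Sertoli cells, and to spermatogonia that answer retinoic acid, switch on Stra8 and move toward meiosis. The comparison sets the transcriptome with and without both enzymes side by side at that age.

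RNA of the targeted genes was lower in both DKO libraries and was not lost. Kdm3a stood at 27.2 and 27.1 RPKM in P7 Ctrl and 8.97 and 7.59 RPKM in P7 DKO, and Kdm3b at 17.3 and 16.1 against 6.49 and 6.73 RPKM. The RPKM files do not say which exons these reads cover. Depth estimated from the steps between low RPKM values was 23.7 to 27.6 M (mega) fragments per library. Replicates correlated across genes at r = 0.984 in P7 Ctrl and 0.969 in P7 DKO. Of the 4 germ cell markers examined, the helicase gene Ddx4 fell from 239.8 and 237.6 to 199 and 169.5 RPKM, the RNA-binding protein gene Dazl rose from 382 and 396 to 582 and 613 RPKM, and Tex101 and Mael did not pass the test. Summed RPKM of 17 Sertoli markers was 298 and 317 in P7 Ctrl and 234 and 369 in P7 DKO, with 1 of 16 tested members lower and none higher. That of 13 endothelial markers was 41.6 and 45.1 against 19.8 and 17.5, and that of 16 stromal markers 69.3 and 68.5 against 52.7 and 37.7. Leydig markers summed to 27.4 and 29.1 against 38.4 and 43.0, leukocyte markers to 9.89 and 9.54 against 8.32 and 5.86. Most of the Leydig sum was Fdx1, at 21.3 and 23.2 against 32.3 and 36.05 RPKM, the only Leydig marker called higher. The defining markers Cyp17a1, Insl3, Csf1r, Myh11 and Tie1 were all below 0.4 RPKM in the 4 libraries. Others were not: the Sertoli markers Inha stood at 11.8 and 15.9 against 14.4 and 19.5 RPKM and Amh at 4.14 and 4.70 against 6.14 and 9.77 RPKM. Wt1 stood at 3.66 and 3.52 against 3.29 and 4.55 RPKM, and none of these Sertoli markers passed. The stromal marker Col1a1 was called lower, at 14.1 and 14.3 against 5.098 and 2.825 RPKM. Of the leukocyte markers Ptprc stood at 0.135 and 0.0582 RPKM in P7 Ctrl and 0.935 and 0.454 RPKM in P7 DKO, and C1qa at 0.143 and 0.206 against 0.772 and 0.142 RPKM, both too low to be tested. The peritubular marker Acta2 stood at 0.39 and 0.199 against 0.27 and 0.791 RPKM, and the Leydig marker Star, at 0.905 and 0.933 against 1.42 and 1.56 RPKM, did not pass. In such bulk samples fewer cells of a type and less RNA per cell cannot be told apart.

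The day 7 double knockout differed from its control in 5127 of the 12600 genes tested (40.7%), with 2693 higher (21.4%) and 2434 lower (19.3%) at an adjusted p under 0.05. Log2 changes are differences on the log2(RPKM + 1) scale with their standard error, and the adjusted p is that of limma. Changes of at least 2-fold made up 652 of the higher and 861 of the lower genes, those of at least 8-fold 21 and 27, and 1526 of the calls lay under 1.5-fold. At 10 RPKM or more in both libraries of one genotype and below 1 RPKM in both of the other, 9 genes stood high in P7 DKO and 10 in P7 Ctrl. Among the 1158 genes with a group mean of 100 RPKM or more, 436 were higher and 108 lower. The count of calls fell to 2901 without P7 Ctrl replicate 1 and to 2974 without P7 Ctrl replicate 2. The split by direction follows the scaling: summed RPKM was 563809 and 558264 in P7 Ctrl and 620451 and 690468 in P7 DKO, and with each library rescaled to the same sum the calls were 1506 higher and 3499 lower. That rescaling moves the median log2 change of all genes by -0.205.

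**Figure D1:**
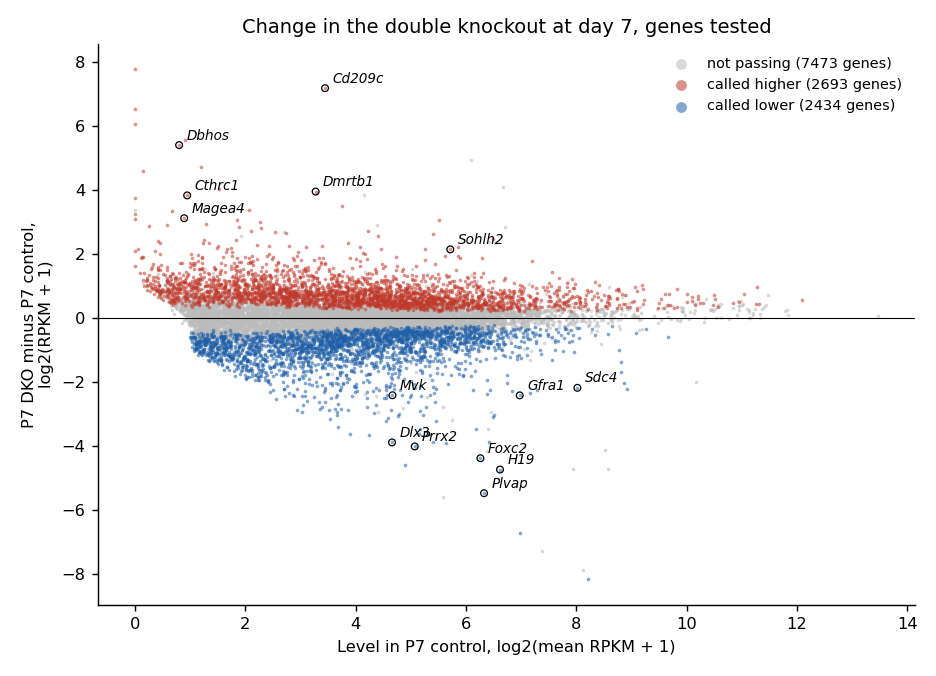
Change of each tested gene between P7 DKO and P7 Ctrl on the log2(RPKM + 1) scale (vertical axis) against its mean level in P7 Ctrl (horizontal axis, log2). Each point is a gene, red where called higher (2693), blue where called lower (2434) and grey where not passing (7473); the largest named rise is Cd209c at 7.19 and the largest named fall Plvap at -5.46.

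The largest named rises joined a lectin, a germ cell transcription factor and genes near silence in the control. Cd209c, a C-type lectin gene related to DC-SIGN (chromosome 8, 3940222 to 3954746 on GRCm38), stood at 9.91 and 9.89 RPKM in P7 Ctrl and 1669 and 1505 RPKM in P7 DKO, a ratio of means of 160.3 (log2 change 7.18 ± 0.41, adjusted p = 4.70e-06). It was thus among the abundant transcripts of both DKO libraries and far from either control. Dbhos, an opposite-strand transcript named after the dopamine beta-hydroxylase gene (chromosome 2, 27144898 to 27162703), stood at 0.836 and 0.645 against 68.5 and 77.3 RPKM (log2 change 5.41 ± 0.31, adjusted p = 4.70e-06). No overlap with an annotated gene was found for it. Dmrtb1, which encodes a transcription factor of differentiating spermatogonia (chromosome 4, 107676290 to 107684230), stood at 7.86 and 9.502 against 143 and 154 RPKM (log2 change 3.96 ± 0.17, adjusted p = 1.52e-06). Cthrc1, a secreted protein with a collagen repeat, stood at 0.874 and 0.979 against 23.3 and 30.1 RPKM (log2 change 3.84 ± 0.19, adjusted p = 3.22e-06). Ly6k, a surface protein of testicular germ cells, stood at 0.368 and 0.825 against 11.7 and 19.6 RPKM (log2 change 3.36 ± 0.49, adjusted p = 0.000618). Klk1b24, a kallikrein gene with near-identical relatives beside it, was listed at 0 in both controls and at 13.3 and 5.43 RPKM in the knockouts. H2-K1, a classical MHC class I gene, stood at 3.78 and 3.81 against 31.4 and 45.3 RPKM (log2 change 3.01 ± 0.17, adjusted p = 4.70e-06).

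The other rises among the 12 largest were Magea4, Magea2 and Magea3, described with the X chromosome, the claudin gene Cldn34b1 and the pseudogene Olfr1372-ps1. In the abundant class, Cd63, which encodes a tetraspanin of endosomes, rose from 18.9 and 16.5 to 111 and 138 RPKM (log2 change 2.74 ± 0.22, adjusted p = 2.41e-05). Mdk, the growth factor midkine, rose from 22.2 and 18.2 to 111 and 139 RPKM (log2 change 2.57 ± 0.51, adjusted p = 0.00311). Snhg9 stood at 40.9 and 42 against 296 and 235 RPKM, and it overlaps the ribosomal protein gene Rps2 on the opposite strand, which stood at 2076 and 2123 against 3366 and 3794 RPKM. Whether the counting used strand is not given in the sources used here, so reads of that pair cannot be told apart.

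Falls of the same size took a vascular and stem cell gene, an imprinted RNA and several developmental transcription factors. Plvap encodes a protein of endothelial fenestrae that is also used to mark stem spermatogonia (chromosome 8, 71497765 to 71511752), and it stood at 79.2 and 79.5 RPKM in P7 Ctrl and 0.749 and 0.895 RPKM in P7 DKO (log2 change -5.46 ± 0.19, adjusted p = 5.62e-07). H19, the maternally expressed imprinted RNA (chromosome 7, 142575529 to 142578143), stood at 98.98 and 95.5 against 3.69 and 1.94 RPKM (log2 change -4.72 ± 0.30, adjusted p = 8.23e-06). Foxc2, a forkhead factor of stem spermatogonia (chromosome 8, 121116171 to 121118895), stood at 74.2 and 77.3 against 3.64 and 1.97 RPKM (log2 change -4.37 ± 0.29, adjusted p = 9.68e-06). Both DKO libraries were far below both controls for all 3 genes. Prrx2, a paired-related homeobox gene (chromosome 2, 30834972 to 30881251), stood at 31.01 and 34.3 against 1.94 and 0.494 RPKM (log2 change -4.003 ± 0.29, adjusted p = 1.41e-05). Dlx3, a distal-less homeobox gene, stood at 24.7 and 23.9 against 0.881 and 0.572 RPKM (log2 change -3.88 ± 0.17, adjusted p = 1.52e-06). Sphk1, which makes the lipid signal sphingosine 1-phosphate, stood at 83.7 and 85.9 against 9.04 and 2.49 RPKM (log2 change -3.86 ± 0.42, adjusted p = 0.000129).

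Among the other 12 largest falls were Smkr-ps, Fgd5 (at 13.9 and 13.8 against 0.317 and 0.123 RPKM) and Ppfibp2 (at 34.2 and 35.05 against 1.74 and 2.12 RPKM), and Barhl2 and Gjb2, the latter for a gap junction protein, were above 10 RPKM in P7 Ctrl and below 1 RPKM in P7 DKO. The ribosomal protein gene Rpl26 was also among the 12 largest falls, but its controls stood at 23.2 and 73.9 RPKM and its knockouts at 7.03 and 0 RPKM; the call was lost without P7 Ctrl replicate 2 (adjusted p = 0.0749) or P7 DKO replicate 2 (adjusted p = 0.0683) and with the 4 P7 libraries fitted alone (adjusted p = 0.0509), and ribosomal protein genes share reads with pseudogenes.

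Promoters of the largest named rises and falls are shown because the strongly higher genes had few CpG pairs, the dinucleotide that mammalian promoters keep in CpG islands. RefSeq windows of 300 bases on GRCm38.p6, from 250 before to 50 after a transcript start, were matched to 9560 of the 12600 genes (75.9%). Plvap, H19 and Foxc2 are named only. Capitals mark each CpG. The Cd209c (chr8:3946814-3947113) and Prrx2 (chr2:30845117-30845416) windows lie 7883 and 10395 bases inside the gene as GENCODE gives it, at another start, and those of Dbhos (chr2:27162654-27162953), Dmrtb1 (chr4:107684181-107684480), Smkr-ps (chr6:29985079-29985378) and Rpl26 (chr11:68901316-68901615) within 17 bases of its start. Each is printed 5′ to 3′ on the strand of the gene, minus for Cd209c, Dbhos and Dmrtb1 and plus for the others.
Cd209c: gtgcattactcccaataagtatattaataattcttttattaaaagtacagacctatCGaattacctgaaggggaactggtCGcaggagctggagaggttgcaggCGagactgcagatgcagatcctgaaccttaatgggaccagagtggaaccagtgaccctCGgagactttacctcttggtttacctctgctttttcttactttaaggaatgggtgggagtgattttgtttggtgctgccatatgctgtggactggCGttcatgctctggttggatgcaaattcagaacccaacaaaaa
Dbhos: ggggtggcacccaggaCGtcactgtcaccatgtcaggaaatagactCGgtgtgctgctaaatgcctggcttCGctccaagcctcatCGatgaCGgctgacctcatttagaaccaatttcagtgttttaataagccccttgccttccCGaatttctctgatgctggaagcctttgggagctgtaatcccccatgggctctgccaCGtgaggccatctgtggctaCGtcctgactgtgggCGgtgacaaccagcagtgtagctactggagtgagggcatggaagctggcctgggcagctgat
Dmrtb1: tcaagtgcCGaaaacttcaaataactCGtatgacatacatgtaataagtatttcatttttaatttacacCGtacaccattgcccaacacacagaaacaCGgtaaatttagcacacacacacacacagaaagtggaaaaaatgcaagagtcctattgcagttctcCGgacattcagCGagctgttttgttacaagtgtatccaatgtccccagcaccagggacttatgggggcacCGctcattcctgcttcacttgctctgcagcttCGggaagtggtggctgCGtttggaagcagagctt
Prrx2: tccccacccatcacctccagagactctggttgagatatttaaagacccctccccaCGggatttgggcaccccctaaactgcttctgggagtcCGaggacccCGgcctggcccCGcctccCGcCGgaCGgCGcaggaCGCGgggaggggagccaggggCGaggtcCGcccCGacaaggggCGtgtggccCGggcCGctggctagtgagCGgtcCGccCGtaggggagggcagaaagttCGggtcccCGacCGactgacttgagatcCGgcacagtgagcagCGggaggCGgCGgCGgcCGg
Rpl26: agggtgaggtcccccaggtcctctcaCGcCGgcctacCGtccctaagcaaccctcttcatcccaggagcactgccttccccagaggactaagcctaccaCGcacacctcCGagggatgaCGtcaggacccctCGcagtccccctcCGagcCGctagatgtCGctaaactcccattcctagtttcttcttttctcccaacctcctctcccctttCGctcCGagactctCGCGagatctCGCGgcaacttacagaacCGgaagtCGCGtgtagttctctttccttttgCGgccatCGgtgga
Smkr-ps: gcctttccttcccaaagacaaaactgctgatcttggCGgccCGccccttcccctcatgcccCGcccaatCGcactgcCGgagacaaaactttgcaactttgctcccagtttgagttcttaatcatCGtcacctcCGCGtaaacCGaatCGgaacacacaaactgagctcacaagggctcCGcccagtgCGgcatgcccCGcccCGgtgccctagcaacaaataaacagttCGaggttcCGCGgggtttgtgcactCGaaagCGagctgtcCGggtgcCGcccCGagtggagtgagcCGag

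The promoters of the 3 largest named rises held 5, 9 and 9 CpG. Their ratios of observed to expected CpG were 0.34 for Cd209c, 0.392 for Dbhos and 0.606 for Dmrtb1. The promoters of Prrx2, Rpl26 and Smkr-ps, which rank 4 to 6 among the named falls, held 28, 21 and 23 CpG (ratios 0.756, 0.87 and 0.909). The Rpl26 call was not stable to the libraries used. The 3 largest falls are not among these promoters. Over all tested genes the median ratio of observed to expected CpG was 0.783. It was 0.792 for the genes called higher and 0.747 for those called lower. Among the 42 matched promoters of genes called higher with a log2 change of 2 or more, the median was 0.436, and 28.6% stood at 0.6 or above, against 75.6% of all. For the 98 of genes called lower with a log2 change of -2 or less it was 0.597. X-linked genes made up 17 of those 42 promoters (40.5%) and 0 of the 98, against 4.32% of all, and several of the 17 are copies within 1 family. A change of at least 4-fold was called in 3.39% of the 2329 genes with a ratio under 0.6 and in 0.844% of the 7231 others. Searched on both strands were the E-box CACGTG, the E2F site GGCGGGAA, the cyclic AMP element TGACGTCA, the nuclear receptor half-site AGGTCA, the forkhead site GTAAACA and the DMRT site TACATTGT. AGGTCA was held by 12 of the 42 (28.6%) and by 11.7% of all promoters of that length. CACGTG lay in 5 of 14 promoters of synaptonemal complex genes and in 10.9% of all. The motifs and sets reported were picked with their values known. No motif contains another, and a match is a string of letters, not a bound site.

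Stem cell genes fell almost as a whole. Of 17 tested genes of the stem spermatogonia list, 16 were lower and none higher, with a median log2 change of -2.41 beside 0.05 over all genes, and at least 15 were lower without any 1 of the 4 libraries. Of these members 5 reached 1 RPKM in P7 Ctrl only and so had to be lower to be tested; of the 12 others, 11 were lower, at a median of -2.17. The list was written with earlier results of these data known. T, the brachyury factor, stood at 18.5 and 17.6 RPKM in P7 Ctrl and 0.671 and 0.361 RPKM in P7 DKO (log2 change -3.66 ± 0.20, adjusted p = 3.79e-06). Lhx1, a LIM homeobox target of GDNF, stood at 39.3 and 38.7 against 3.73 and 1.23 RPKM (log2 change -3.62 ± 0.27, adjusted p = 1.94e-05). Nanos2, the translational repressor that keeps stem cells undifferentiated, stood at 12.1 and 10.6 against 1.07 and 0.438 RPKM (log2 change -2.84 ± 0.45, adjusted p = 0.000915). The receptor gene Gfra1, which marks the stem pool, stood at 125 and 125 against 36.5 and 13.99 RPKM (log2 change -2.41 ± 0.38, adjusted p = 0.000957). The groups did not overlap for any of these 4, and DKO replicate 2 was the lower of its pair each time. The remaining list members, chosen for mention after their values were seen, included Pax7 at 4.82 and 4.88 against 0.0392 and 0 RPKM, Eomes at 10.8 and 10.4 against 0.485 and 0.181 RPKM and Id4 at 66.6 and 68.1 against 30.9 and 10.97 RPKM. Tspan33, the 1 tested member that did not pass, stood at 10.4 and 11.8 against 9.75 and 16.03 RPKM.

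Endothelial and stromal markers were lower in part. Of 7 tested endothelial markers 5 were lower, among them the VEGF receptor Kdr (3.66 and 3.76 against 0.441 and 0.1904 RPKM), endoglin (Eng, 4.34 and 3.96 against 0.507 and 0.206 RPKM) and Cdh5 (2.82 and 2.73 against 0.391 and 0.04402 RPKM). These 3 are among 5 of the 7, with Pecam1 and Tek, that reached 1 RPKM in P7 Ctrl only. Those 5 had to be lower to be tested. The 2 others were both lower, with Sox18 at 8.01 and 6.26 against 1.64 and 1.06 RPKM. Pecam1, at 1.53 and 1.61 against 0.927 and 0.683 RPKM, did not pass, and Tie1, Vwf and Emcn stood below 0.4 RPKM in all 4 libraries. Of 5 tested stromal markers 3 were lower, with the receptor genes Pdgfrb at 3.23 and 3.1 against 0.215 and 0.136 RPKM and Pdgfra at 3.97 and 4.01 against 0.849 and 1.43 RPKM. Pdgfrb reached 1 RPKM in P7 Ctrl only and so had to be lower to be tested. Of the 4 other stromal markers tested, 2 were lower. The part of the endothelial and stromal markers in the result was not tested.

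Genes of GDNF and FGF signalling were lower in part, in a list that shares genes with the stem spermatogonia list. Gfra1, Ret, Etv5, Bcl6b and Lhx1, all lower, belong to both, so the counts of these lists are not separate results. Of 23 tested GDNF and FGF receptors and targets, 13 were lower and 2 higher (median log2 change -0.84), or 11 and 2 of the 20 that reached 1 RPKM in both genotypes. Ret, the kinase that GFRA1 presents GDNF to, stood at 104 and 109.7 RPKM in P7 Ctrl and 45.2 and 13.9 RPKM in P7 DKO (log2 change -2.04 ± 0.40, adjusted p = 0.00317). Among genes that GDNF induces in stem spermatogonia, Etv5 stood at 155 and 154 against 51.9 and 19.6 RPKM (log2 change -2.24 ± 0.33, adjusted p = 0.000614). Bcl6b stood at 88.8 and 88.4 against 13.2 and 6.74 RPKM (log2 change -3.09 ± 0.31, adjusted p = 8.67e-05). Egr2, an immediate early factor, stood at 90.7 and 90.2 against 17.4 and 5.95 RPKM (log2 change -3.02 ± 0.33, adjusted p = 0.000131). Dusp6, the phosphatase induced by ERK signalling, stood at 114 and 114 against 36.5 and 14.2 RPKM (log2 change -2.26 ± 0.30, adjusted p = 0.000387). Every DKO value lay below both controls, and DKO replicate 2 stood at less of the control level than replicate 1 for all 5. Gfra3, the artemin co-receptor, rose from 2.16 and 2.79 to 5.73 and 8.098 RPKM. Sdc4, a heparan sulfate proteoglycan, was among the abundant falls, at 256 and 262 against 58.01 and 55.3 RPKM (log2 change -2.17 ± 0.15, adjusted p = 1.31e-05).

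**Figure D2:**
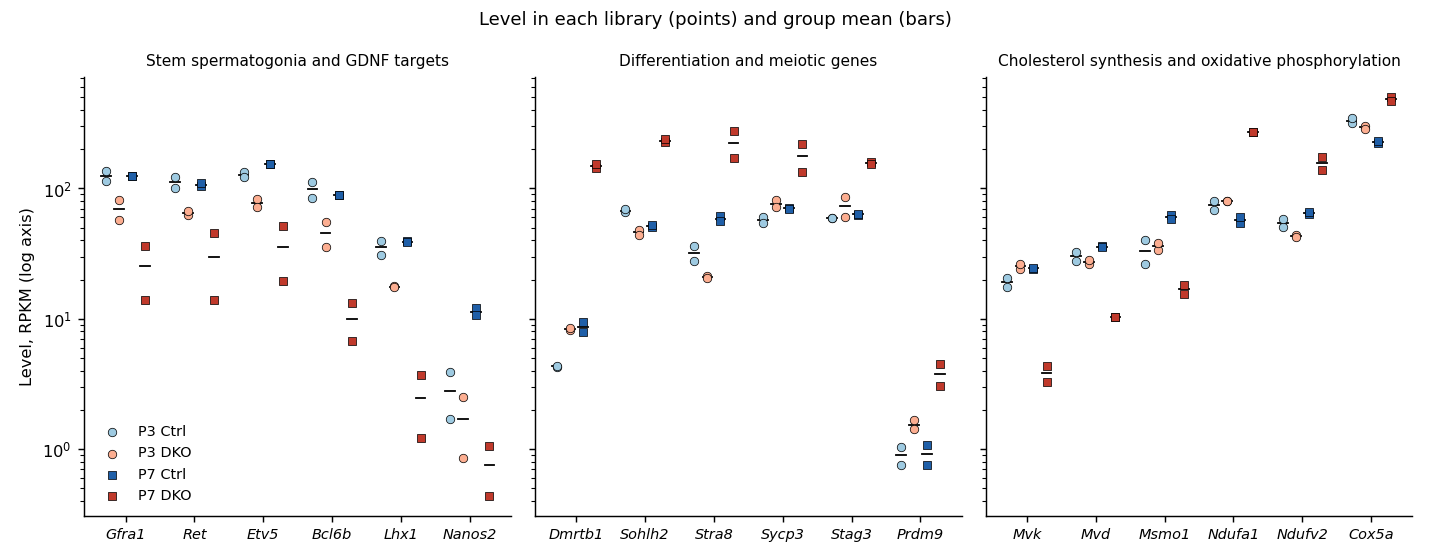
Level of 18 named genes in RPKM on a log axis, with 1 point per library and a bar at the mean of the 2 libraries of a group, for P3 Ctrl, P3 DKO, P7 Ctrl and P7 DKO. The stem cell and GDNF genes of the left panel are lowest in P7 DKO (Gfra1 at 36.5 and 13.99 RPKM) except Nanos2, whose day 3 values reach as low, and those of the middle panel are highest there (Sohlh2 at 226 and 239.7 RPKM).

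Factors of undifferentiated progenitors moved both ways, with 8 of 17 tested members lower and 4 higher (2 higher without P7 Ctrl replicate 2 or with rescaling, 1 without P7 Ctrl replicate 1). Lin28a, an RNA-binding protein of undifferentiated cells, stood at 82.8 and 81.5 RPKM in P7 Ctrl and 16.8 and 13.8 RPKM in P7 DKO (log2 change -2.36 ± 0.12, adjusted p = 3.44e-06). Pou5f1, the pluripotency factor OCT4, stood at 69.8 and 67.4 against 18.9 and 9.92 RPKM (log2 change -2.24 ± 0.22, adjusted p = 8.22e-05). The zinc finger gene Sall1 stood at 22.4 and 22.7 against 3.59 and 2.86 RPKM (log2 change -2.48 ± 0.33, adjusted p = 0.000404). Sox3, an X-linked factor of spermatogonia, went the other way and stood at 16.03 and 15.8 against 56.7 and 57.6 RPKM (log2 change 1.78 ± 0.13, adjusted p = 1.53e-05). Of 19 tested pluripotency and primordial germ cell genes, 7 were lower and 4 higher (2 higher without P7 Ctrl replicate 1). Tcl1, a co-activator of AKT kinase, was among the abundant falls at 141 and 142 against 38.4 and 19.1 RPKM (log2 change -2.34 ± 0.25, adjusted p = 0.0001204). In the pluripotency list Sox2 and Esrrb reached 1 RPKM in P7 Ctrl only and Nanog in P7 DKO only, which fixed their direction. Of the 16 others, 5 were lower and 3 higher. Lin28a and Pou5f1 count in both this list and that of the progenitor factors.

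Differentiation genes rose in part. Of 17 tested genes of differentiation and meiotic entry, 8 were higher and 1 lower (median log2 change 0.68), and 6 to 8 were higher when a P7 library was left out. Beside Dmrtb1, Sohlh2, a helix-loop-helix factor that drives differentiation, stood at 50.8 and 52.4 RPKM in P7 Ctrl and 226 and 239.7 RPKM in P7 DKO (log2 change 2.15 ± 0.10, adjusted p = 1.52e-06). Stra8 stood at 61.03 and 55.98 against 172 and 276 RPKM (log2 change 1.88 ± 0.27, adjusted p = 0.000618), with the pair of knockouts wide apart and both above the controls. The partner gene Sohlh1, picked with its values known, stood at 76.6 and 79.4 against 63.2 and 86.3 RPKM and did not pass. The lower member was the D-type cyclin gene Ccnd2, at 136 and 137 against 103 and 35.9 RPKM (adjusted p = 0.0229), a call lost without either control library (adjusted p = 0.0896 and 0.0912), with the 4 P7 libraries fitted alone (adjusted p = 0.128) and with no filter on low values (adjusted p = 0.0533).

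Genes that handle retinoic acid moved both ways. Of 17 tested members 5 were higher and 4 lower, with 3 higher without P7 Ctrl replicate 1 or P7 DKO replicate 2. Crabp1, the cellular binding protein, stood at 70.4 and 68.5 RPKM in P7 Ctrl and 146 and 242 RPKM in P7 DKO (log2 change 1.42 ± 0.19, adjusted p = 0.000347). Dhrs3, which turns retinaldehyde back to retinol, stood at 6.54 and 6.03 against 1.11 and 0.763 RPKM (log2 change -1.92 ± 0.18, adjusted p = 6.46e-05). The degrading enzyme Cyp26a1 stood at 3.67 and 3.12 against 0.582 and 0.686 RPKM (log2 change -1.43 ± 0.19, adjusted p = 0.000388). Aldh1a3, which makes retinoic acid, stood at 3.05 and 3.04 against 0.175 and 0.0261 RPKM (log2 change -1.88 ± 0.29, adjusted p = 0.000778). Cyp26a1 and Aldh1a3 reached 1 RPKM in P7 Ctrl only and so had to be lower to be tested. Of the 14 members that reached it in both genotypes, 5 were higher and 2 lower. The share called in the list was 52.9%, beside 40.7% over all genes.

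Structural genes of meiotic chromosomes were higher. Of 14 tested genes of the synaptonemal complex and meiotic cohesin, 11 were higher and none lower (median log2 change 0.81), and 8 to 11 were higher when a P7 library was left out. Sycp1, the transverse filament, stood at 47.9 and 50.04 RPKM in P7 Ctrl and 113 and 139.7 RPKM in P7 DKO (log2 change 1.34 ± 0.20, adjusted p = 0.000713). Sycp3, of the lateral element, stood at 71.2 and 69.3 against 134 and 221 RPKM (log2 change 1.28 ± 0.24, adjusted p = 0.00258). The cohesin subunit gene Stag3 stood at 63.05 and 64.2 against 158 and 154 RPKM (log2 change 1.28 ± 0.14, adjusted p = 0.000128). Hormad1, an axis protein, stood at 26.01 and 29.97 against 68.7 and 98.2 RPKM (log2 change 1.52 ± 0.32, adjusted p = 0.00452). In the recombination list 9 of 20 tested genes were higher and 1 lower, but 5 were higher without P7 Ctrl replicate 1, and 4 without P7 Ctrl replicate 2, without P7 DKO replicate 2 or with each library rescaled, and none was lower without any 1 P7 library. Prdm9, the methyltransferase that places recombination hotspots, stood at 1.07 and 0.756 against 3.03 and 4.5 RPKM (log2 change 1.304 ± 0.18, adjusted p = 0.000515), and the helicase gene Hfm1 at 5.79 and 5.77 against 17.6 and 17.1 RPKM (log2 change 1.44 ± 0.24, adjusted p = 0.00119). Of 21 spermatid genes only 6 were tested, with 3 higher and 2 lower. Tssk6 reached 1 RPKM in P7 DKO only and Tekt1 in P7 Ctrl only, which fixed their direction. Of the 4 others, 2 were higher and 1 lower. Spaca1 of the acrosome rose from 7.53 and 6.45 to 20.9 and 16.5 RPKM, and Tekt1 of the flagellum and the transition protein gene Tnp1 fell, the latter from 11.5 and 8.74 to 3.57 and 3.72 RPKM.

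**Figure D3:**
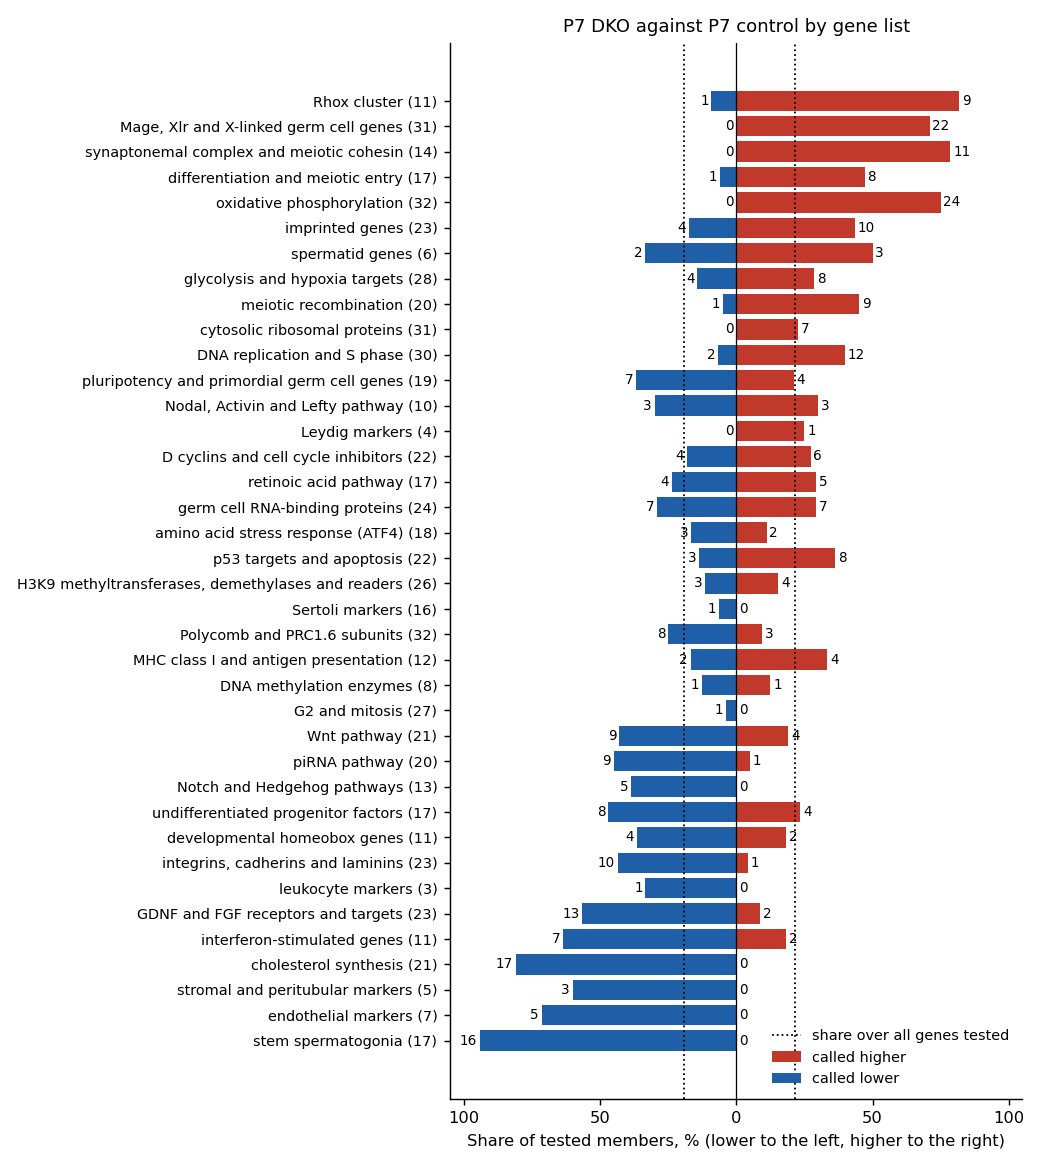
Share of the tested members of each gene list (number in brackets) called higher (red, to the right) or lower (blue, to the left) in P7 DKO, for lists with at least 3 tested members, ordered by median log2 change. Numbers at the bars are counts of genes and dotted lines mark 21.4% higher and 19.3% lower over all genes tested; stem spermatogonia (16 of 17 lower) and the Rhox cluster (9 of 11 higher) lie at the ends.

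Germline gene families of the X chromosome rose. Of 11 tested Rhox homeobox genes 9 were higher and 1 lower (median log2 change 1.24), and 8 to 9 were higher without any 1 library. Rhox3a and Rhox4d reached 1 RPKM in P7 DKO only and so had to be higher to be tested; of the 9 others, 7 were higher and 1 lower. Rhox13 (chromosome X, 38121219 to 38129967), made in differentiating spermatogonia, stood at 21.2 and 20.8 RPKM in P7 Ctrl and 87.6 and 107 RPKM in P7 DKO (log2 change 2.15 ± 0.11, adjusted p = 3.22e-06). Rhox9 stood at 1.61 and 2.02 against 10.8 and 12.7 RPKM (log2 change 2.18 ± 0.25, adjusted p = 0.000149) and Rhox6 at 1.58 and 1.04 against 6.75 and 8.296 RPKM. The exception was Rhox5, the founding member, at 7.45 and 6.97 against 1.403 and 2.51 RPKM (log2 change -1.499 ± 0.35, adjusted p = 0.00695). Of 31 tested Mage, Xlr and other X-linked germ cell genes, 22 were higher and none lower (median log2 change 0.89; 18 to 20 higher without any 1 library; Magea4 reached 1 RPKM in P7 DKO only). The melanoma antigen gene Magea4 stood at 0.789 and 0.923 against 11.8 and 19.4 RPKM (log2 change 3.12 ± 0.27, adjusted p = 4.36e-05), Magea2 at 1.39 and 1.49 against 17.1 and 18.4 RPKM and Magea3 at 2.41 and 2.96 against 24.1 and 27.3 RPKM. Magea2, Magea3 and Magea6 are near-identical copies, and how the authors placed reads that fit several of them is not given in the sources used here, so their levels are uncertain one by one.

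The rise reached X genes outside these families. Of 487 tested X genes 188 (38.6%) were higher and 43 (8.83%) lower, against 20.7% and 19.9% of 11635 autosomal genes. The median log2 change was 0.38 on the X and 0.03 on autosomes. Without the listed germ cell genes and related families, 434 X genes remained, of which 34.3% were higher and 9.68% lower. Summed RPKM of X genes made up 2.25 and 2.29% of the total in P7 Ctrl and 2.83 and 2.66% in P7 DKO. The median level of X genes minus that of autosomal genes, in log2(RPKM + 1), was -0.698 and -0.686 in P7 Ctrl and -0.181 and -0.145 in P7 DKO, so that both knockouts stood above both controls. At day 3 it was -0.911 and -0.928 in P3 Ctrl and -0.593 and -0.64 in P3 DKO, and -0.928 to -0.637 in the other day 3 libraries. With each library rescaled, 29.0% of X genes were higher and 14.4% lower, beside 11.2% and 28.5% of autosomal genes. Transcript length moved with the change too: among X genes shorter than the median of all genes 49.3% were higher and among longer ones 24.9%, against 24.7% and 16.8% on autosomes. Without P7 Ctrl replicate 1 the shares higher were 27.1% on the X and 10.9% on autosomes, without P7 Ctrl replicate 2 27.9% and 11.3%. With 2 libraries a group, a two-sided exact permutation test over libraries cannot give less than p = 0.333, and genes of a chromosome are not replicates.

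**Figure D4:**
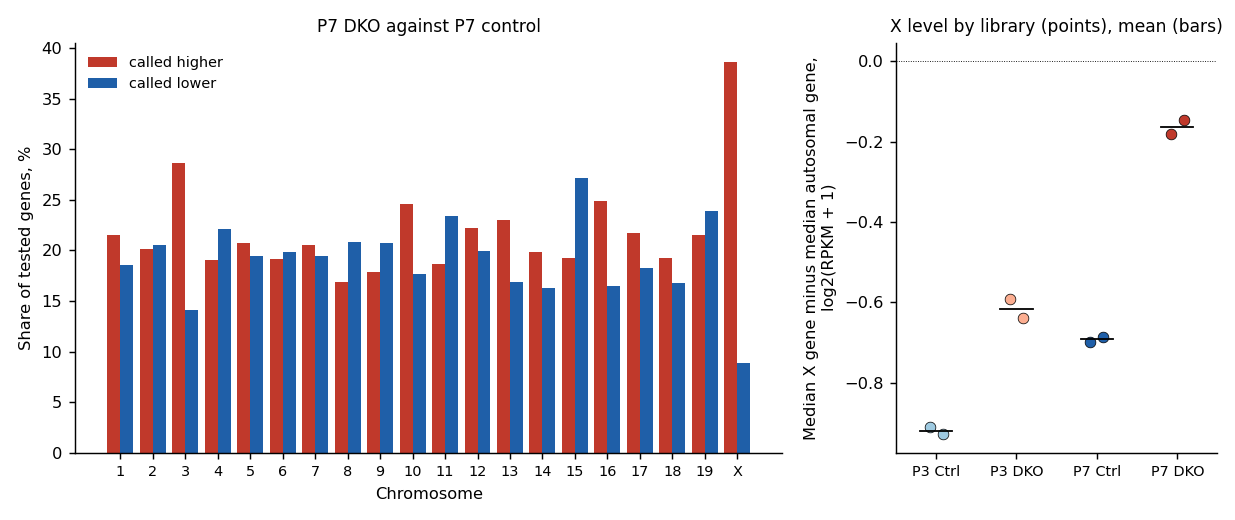
Left, share of tested genes called higher (red) and lower (blue) in P7 DKO on each chromosome; the X has the highest share of higher genes (38.6%) and the lowest share of lower genes (8.83%). Right, median level of X genes minus that of autosomal genes in log2(RPKM + 1) for each library (points, 2 a group) with the mean (bar); P7 DKO lies at -0.181 and -0.145, above the other 3 groups.

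Imprinted genes did not move as a block. Of 23 tested, 10 were higher and 4 lower, with 5 higher without P7 Ctrl replicate 1 and 6 without P7 Ctrl replicate 2. Of the 20 that reached 1 RPKM in both genotypes, 7 were higher and 4 lower. Igf2, the growth factor gene beside H19, stood at 21.7 and 22.2 RPKM in P7 Ctrl and 4.68 and 1.89 RPKM in P7 DKO (log2 change -2.502 ± 0.29, adjusted p = 0.0001598), so that this oppositely imprinted pair fell together. Rian, of the Dlk1 domain, stood at 15.5 and 14.3 against 3.63 and 1.801 RPKM (log2 change -2.15 ± 0.27, adjusted p = 0.000302). Snrpn, of the Prader-Willi domain, stood at 10.2 and 8.99 against 42.96 and 33.6 RPKM (log2 change 1.88 ± 0.38, adjusted p = 0.00359). RPKM of a gene do not tell its alleles apart.

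The piRNA pathway, which silences transposons in fetal and neonatal germ cells, fell in part, with 9 of 20 tested genes lower and 1 higher (5 lower without either control library, none higher without any 1 P7 library). Piwil4, the nuclear PIWI protein MIWI2, stood at 11.1 and 12.5 RPKM in P7 Ctrl and 3.64 and 1.03 RPKM in P7 DKO (log2 change -2.06 ± 0.30, adjusted p = 0.0005797). Piwil1 stood at 8.23 and 7.498 against 1.28 and 0.979 RPKM (log2 change -2.06 ± 0.16, adjusted p = 2.54e-05) and the cofactor gene Exd1 at 18.1 and 18.97 against 8.11 and 8.298 RPKM (log2 change -1.09 ± 0.14, adjusted p = 0.000286). Of 26 tested H3K9 methyltransferases, demethylases and readers, 4 were higher and 3 lower, the lower ones being Kdm3a, Kdm3b and Cdyl. The count of 4 higher became 0 without P7 Ctrl replicate 1 or with rescaling, 1 without P7 Ctrl replicate 2 or P7 DKO replicate 2 and 3 without P7 DKO replicate 1; rescaling gave 8 lower. Jmjd1c, the third family member, picked with its values known, stood at 41.3 and 40.1 against 30.5 and 22.8 RPKM and did not pass (adjusted p = 0.0541). Of 8 tested DNA methylation enzymes 1 was higher and 1 lower (3 lower with rescaling). The lower one was Uhrf1, a cofactor of maintenance methylation, at 176 and 179 against 151 and 104 RPKM (log2 change -0.503 ± 0.17, adjusted p = 0.0379), a call lost without P7 Ctrl replicate 1 (adjusted p = 0.124), P7 Ctrl replicate 2 (adjusted p = 0.136) or P7 DKO replicate 2 (adjusted p = 0.284), and with the 4 P7 libraries fitted alone (adjusted p = 0.0916). The oxidase gene Tet3 was higher, at 2.98 and 2.55 against 8.17 and 8.51 RPKM (log2 change 1.31 ± 0.18, adjusted p = 0.000391). Of 32 Polycomb genes 3 were higher and 8 lower (4 lower and 1 higher without either control library, 5 lower without P7 DKO replicate 2), with Cbx7 at 24.4 and 24.7 against 9.201 and 7.38 RPKM (log2 change -1.47 ± 0.14, adjusted p = 5.47e-05) and E2f6, a repressor of germline genes, at 64.04 and 63.7 against 32.5 and 30.2 RPKM (log2 change -1.004 ± 0.12, adjusted p = 0.000171). Among 24 germ cell RNA-binding proteins 7 were higher, as Igf2bp3 (15.4 and 15.4 against 44.5 and 31.3 RPKM), and 7 lower. The share called was 34.4% for Polycomb genes, 26.9% for the H3K9 list and 25.0% for DNA methylation enzymes. All lay under the 40.7% of all genes, so these counts do not set the lists apart.

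DNA replication genes were higher in part at day 7, with a share called (46.7%) near the 40.7% of all genes. Of 27 mitosis genes, 26 did not pass the test. Of 30 tested replication and S phase genes 12 were higher and 2 lower, with 7 higher and 1 lower without either control library, none lower without P7 DKO replicate 2, and 6 higher and 4 lower with each library rescaled. Gins2, of the replicative helicase, stood at 23.3 and 20.5 RPKM in P7 Ctrl and 49.3 and 46 RPKM in P7 DKO (log2 change 1.09 ± 0.16, adjusted p = 0.000759). The E-type cyclin gene Ccne2 stood at 4.33 and 4.54 against 10.7 and 11.5 RPKM (log2 change 1.16 ± 0.15, adjusted p = 0.000347). Of 27 G2 and mitosis genes 1 was lower, the phosphatase gene Cdc25b at 11.5 and 10.7 against 5.58 and 5.08 RPKM (log2 change -0.93 ± 0.11, adjusted p = 0.000182). Rescaling made 9 of the 27 lower. The inhibitor gene Cdkn1b stood at 9.25 and 10.7 against 2.99 and 3.52 RPKM (log2 change -1.36 ± 0.14, adjusted p = 8.80e-05), and Mycn, a growth-promoting factor, at 21.7 and 22.8 against 67.03 and 49.2 RPKM (log2 change 1.33 ± 0.23, adjusted p = 0.00145). Of 22 tested p53 targets and apoptosis genes 8 were higher and 3 lower, or 7 and 5 with rescaling. Casp8 and Eda2r reached 1 RPKM in P7 DKO only and so had to be higher to be tested. Of the 20 others, 6 were higher and 3 lower. The p53 target gene Phlda3, an inhibitor of AKT signalling, rose from 3.65 and 4.15 to 10.01 and 12.6 RPKM, and the initiator caspase gene Casp9 fell from 34.1 and 36.9 to 15.1 and 13.7 RPKM.

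Metabolic genes moved apart, though the share called among glycolysis and hypoxia targets (42.9%) was near the 40.7% of all genes. Of 32 tested subunits of oxidative phosphorylation 24 were higher and none lower (median log2 change 0.58). Leaving out P7 Ctrl replicate 1 gave 15 higher, P7 Ctrl replicate 2 or P7 DKO replicate 2 gave 16, rescaling gave 16 and quantile normalization 15. Ndufa1, an X-linked subunit of complex I, stood at 53.9 and 60.6 RPKM in P7 Ctrl and 273 and 272 RPKM in P7 DKO (log2 change 2.23 ± 0.10, adjusted p = 1.76e-06). Cox5a of complex IV stood at 224 and 231 against 503 and 469 RPKM (log2 change 1.09 ± 0.08, adjusted p = 1.93e-05). Of 31 cytosolic ribosomal protein genes 7 were higher (22.6%, near the 21.4% of all genes) and none lower, a count between 2 and 16 when a P7 library was left out (2 without either control library or P7 DKO replicate 2, 16 without P7 DKO replicate 1). Glycolysis and hypoxia targets had 8 of 28 higher (2 without either control library, 4 without P7 DKO replicate 1) and 4 lower, or 2 higher and 7 lower with rescaling, with the aldolase gene Aldoc at 32.1 and 30.1 against 4.86 and 5.23 RPKM (log2 change -2.41 ± 0.19, adjusted p = 2.23e-05).

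Cholesterol synthesis fell. Of 21 tested genes 17 were lower and none higher (median log2 change -1.05), and 13 to 16 were lower without any 1 library. Mvk, mevalonate kinase, stood at 24.3 and 24.6 RPKM in P7 Ctrl and 4.36 and 3.301 RPKM in P7 DKO (log2 change -2.405 ± 0.13, adjusted p = 3.44e-06). A later enzyme of the pathway, Mvd, which makes isopentenyl diphosphate, stood at 36.1 and 35.4 against 10.3 and 10.3 RPKM (log2 change -1.702 ± 0.11, adjusted p = 8.91e-06). Msmo1, which removes methyl groups from the sterol ring, stood at 62.6 and 58.04 against 18.3 and 15.6 RPKM (log2 change -1.77 ± 0.18, adjusted p = 8.47e-05). Srebf2, which encodes the transcription factor that drives these genes and was picked with its values known, stood at 120.1 and 120 against 56.9 and 42.4 RPKM (adjusted p = 0.00136). The list's median change at day 3 was 0.14, and Mvk stood at 17.6 and 20.6 RPKM in P3 Ctrl and 24.3 and 26.4 RPKM in P3 DKO.

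The length of transcripts moved with the change over the whole table. Over 5 equal groups of genes, from the shortest to the longest, the median log2 change ran from 0.20 to -0.11, the share higher from 28.6 to 14.6% and the share lower from 12.7 to 25.9%. The median transcript of the oxidative phosphorylation list has 1553 nucleotides, that of the ribosomal list 1128 and that of the Rhox list 883. Centring the changes by transcript length left 18 of the 32 oxidative phosphorylation genes higher, 5 of the 31 ribosomal genes, 8 of the 11 Rhox genes, and 17 cholesterol genes and 16 stem cell genes lower.

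Among other signals, Notch and Hedgehog genes had 5 of 13 tested members lower and none higher. The share called in that list was 38.5%, under the 40.7% of all genes, so its size does not set the list apart. Dll4 reached 1 RPKM in P7 Ctrl only and so had to be lower to be tested, and 4 of the 12 others were lower. The same limit held for Sp5 and Shisa6 of the Wnt list below, and for Itga9, Itgb4 and Cdh5 among the adhesion genes. Of the 18 Wnt genes at that level in both genotypes, 7 were lower and 3 higher. Of 20 such integrins, cadherins and laminins, 7 were lower and 1 higher. Notch1 stood at 12.01 and 12.2 RPKM in P7 Ctrl and 3.37 and 2.33 RPKM in P7 DKO (log2 change -1.78 ± 0.19, adjusted p = 9.92e-05), and its ligand gene Dll4 at 3.06 and 3.65 against 0.283 and 0.385 RPKM (log2 change -1.71 ± 0.20, adjusted p = 0.000187). Of 21 Wnt pathway genes 9 were lower (5 without P7 DKO replicate 2) and 4 higher (none without either control library or with rescaling, 1 without P7 DKO replicate 2), with the Wnt modulator gene Shisa6 at 3.87 and 3.74 against 0.4001 and 0.3601 RPKM (log2 change -1.800 ± 0.20, adjusted p = 0.000131). Of 10 tested genes of the Nodal and Activin pathway 3 were higher (1 without either control library or with rescaling) and 3 lower: the activin antagonist gene Fst stood at 42.2 and 43.9 against 14.2 and 5.06 RPKM (log2 change -2.196 ± 0.33, adjusted p = 0.0007698), and the receptor gene Acvr2b at 13.99 and 15.3 against 26.8 and 26.3 RPKM (log2 change 0.82 ± 0.10, adjusted p = 0.000307). Integrins, cadherins and laminins had 10 of 23 lower (4 and 5 without the control libraries, 5 without P7 DKO replicate 2). Itga3 was among them, at 13.96 and 14.3 against 4.05 and 3.87 RPKM (log2 change -1.61 ± 0.17, adjusted p = 0.0001103). The share called was 47.8% for these adhesion genes and 61.9% for the Wnt genes, beside 40.7% of all genes.

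Interferon-stimulated genes had 7 of 11 tested members lower and 2 higher (median log2 change -0.95; none higher without either control library or P7 DKO replicate 2), with Ifi27l2a at 5.87 and 8.58 against 0.305 and 0.159 RPKM (log2 change -2.72 ± 0.35, adjusted p = 0.000318) and Oasl2 at 6.49 and 7.32 against 1.38 and 0.908 RPKM (log2 change -1.89 ± 0.20, adjusted p = 0.000118). Ifi27l2a and Ifi35 reached 1 RPKM in P7 Ctrl only and Irf7 in P7 DKO only, so their direction was fixed by the filter. Of the 8 other interferon-stimulated genes tested, 5 were lower and 1 higher. In the MHC class I list 4 of 12 were higher and 2 lower, or 3 and 4 with each library rescaled. Without H2-T23, which reached 1 RPKM in P7 DKO only, 3 of 11 were higher. H2-D1 rose with H2-K1, from 4.96 and 4.198 to 18.02 and 20.1 RPKM (log2 change 1.85 ± 0.26, adjusted p = 0.000564), while the loading factor gene Tapbp fell from 34.3 and 39.99 to 11.4 and 13.98 RPKM (log2 change -1.48 ± 0.21, adjusted p = 0.000478) and the immunoproteasome gene Psmb9 from 6.54 and 8.46 to 2.91 and 2.21 RPKM. Class I genes are near-identical in part, which makes the level of each uncertain.

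The change at day 7 differed from that at day 3 in 3395 genes (26.9%), of which 1896 moved up relative to day 3 (15.0%) and 1499 down (11.9%), by a test of the difference itself. The counts were 1846 and 1841 without P7 Ctrl replicate 1 or 2 and 2001 without P3 DKO replicate 2, and rescaling gave 622 up and 2989 down. Of the 5127 genes called at day 7, 2862 (55.8%) were among them. Across genes the 2 changes, which share no library, correlated at r = 0.151; genes are not independent replicates. The 6 genes that follow were chosen for this contrast after their values were seen. Sohlh2, which rose at day 7, stood at 65.4 and 69.6 RPKM in P3 Ctrl and 48.3 and 43.8 RPKM in P3 DKO (difference 2.69 ± 0.14, adjusted p = 1.26e-05). Piwil1 stood at 8.21 and 10.2 RPKM in P3 Ctrl and 10.01 and 11.7 RPKM in P3 DKO, against its fall at day 7 (difference -2.28 ± 0.23, adjusted p = 0.000388). Rian stood at 22.2 and 14.1 against 34.6 and 32.7 RPKM at day 3 (difference -3.03 ± 0.39, adjusted p = 0.000925), and Tekt1 at 2.98 and 3.197 against 6.46 and 6.97 RPKM (difference -2.83 ± 0.32, adjusted p = 0.000589). Ppfibp2 stood at 6.94 and 5.62 against 6.07 and 5.85 RPKM at day 3 (difference -3.55 ± 0.26, adjusted p = 9.44e-05), and Mdk at 30.7 and 41.8 against 22.9 and 19.7 RPKM (difference 3.30 ± 0.72, adjusted p = 0.00881).

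Several lists held many such genes. The difference was down for 11 of 17 stem spermatogonia genes and 14 of 21 cholesterol genes, with none up, and up for 24 of 32 oxidative phosphorylation genes and 22 of 30 replication genes, with none down. The median log2 change of the replication list was -0.58 at day 3 and 0.30 at day 7. The oxidative phosphorylation list stood at -0.24 and 0.58, and the stem cell list at -0.61 and -2.41. Not every strong change was set apart: the difference for Gfra1 (-1.55 ± 0.54, adjusted p = 0.0577), Tcl1 (-0.92 ± 0.36, adjusted p = 0.0817) and Rhox9 (0.75 ± 0.35, adjusted p = 0.136) did not pass.

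**Figure D5:**
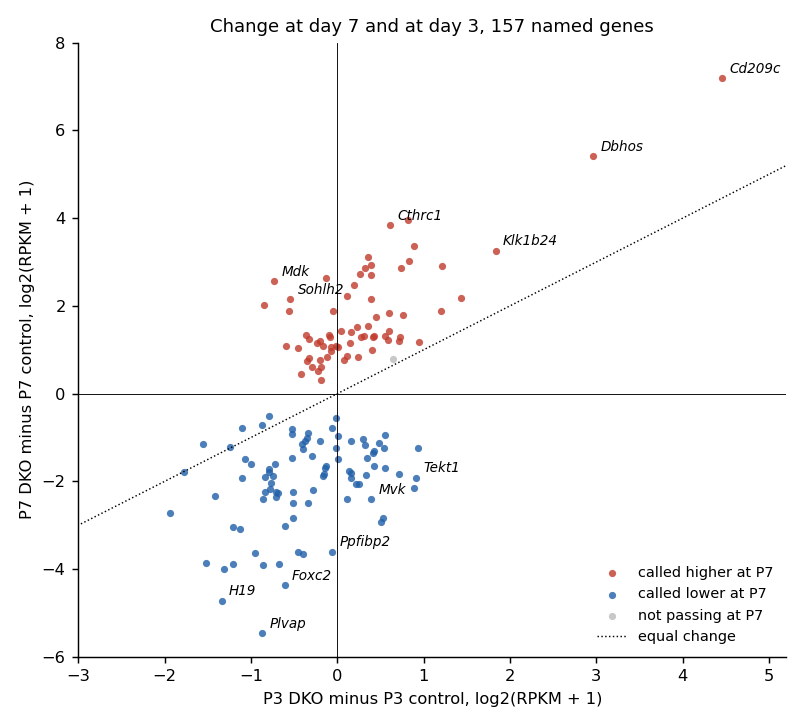
Log2 change of the 157 named genes between DKO and Ctrl at day 7 (vertical axis) against that at day 3 (horizontal axis), both on log2(RPKM + 1). Points are genes, red where called higher, blue where called lower and grey where not passing at day 7, and the dotted line marks equal change; Cd209c lies at 7.19 and 4.46, and since the genes were named for their change at day 7, its larger size there follows from the choice.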

How the data were processed

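RNA from the testis samples was prepared with an AllPrep DNA/RNA Micro kit and a TruSeq Stranded mRNA LT kit, per the labels' protocols. The authors deposited 1 table of RPKM values per library, normalized to transcript length and mapped reads. TopHat2 2.1.1, Cufflinks 2.1.1 and the build mm10 are named, per the submitters' processing notes; their roles, the annotation and the use of strand in counting are not given in the sources used here. Symbols were matched to GENCODE M21 (23306 of 24340, 95.8%) for coordinates and lengths.

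Values were taken as log2(RPKM + 1), so fold changes of low genes are understated. Genes at 1 RPKM or more in 2 of the 4 P7 libraries entered limma 3.58.1 (R 4.3.3) with a trended prior, fitted over 14 libraries in 7 groups (residual degrees of freedom 7). Tests are two-sided with Benjamini-Hochberg adjustment over the 12600 genes and a threshold of 0.05. The ± after a log2 change is the standard error from that fit (median 0.173). The difference between the ages is the contrast of the 2 changes. In data simulated for this comparison over 12600 genes, 69% of 100 genes changed by log2 1 and 97% of 100 changed by log2 2 were recovered, with 10 false calls. The changed genes were drawn from those with a mean log2(RPKM + 1) above 2, and the noise was independent between genes. Far more genes were called in the real data, where changes also moved with transcript length and scaling. These rates therefore do not carry over to the calls reported here.

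Named genes are Kdm3a and Kdm3b, the 12 largest rises and falls without overlap, up to 6 in each direction below 1 RPKM in one group and at 10 or more in the other, the 6 largest rises and falls at 100 RPKM or more, and up to 4 members of each list; predicted genes and small RNAs are counted and not named. A few genes that the rule names are not reported here. The comparison, its members and the lists were chosen with earlier results of these data known. Depth was estimated from RPKM steps of 446 to 779 genes per P7 library, of which 81.6 to 84.1% lay within 0.2 of a whole read number (40% by chance), too few to recover counts. Replicate numbers were not treated as pairs. Between P7 Ctrl and P7 DKO the deviations from the group means, matched by replicate number, correlated at 0.0095. The day 3 groups were not examined in this way. Alternatives covered the pseudocount, filter, scaling, libraries in the fit, replicate block, transcript length and leaving out each library.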

Additional observations from a re-analysis of the deposited data

Results flagged for a closer look

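The change with loss of both demethylases differed between day 7 and day 3 in 3395 of 12600 genes by a test of the difference in limma (Benjamini-Hochberg adjusted p under 0.05). That is 26.9% of all genes tested. The 12 genes with the 6 largest rises and 6 largest falls were chosen by their change at day 7, so that a difference from day 3 in 11 of them is a description and supports nothing. Rpl26 did not pass. For the rises the difference in log2 change was 2.72 for Cd209c, 3.22 for Cthrc1, 2.44 for Dbhos, 3.14 for Dmrtb1, 2.47 for Ly6k and 1.43 for Klk1b24. For the falls it was -4.60 for Plvap, -3.76 for Foxc2, -3.39 for H19, -3.20 for Smkr-ps and -2.69 for Prrx2. Cd209c was already at 374 and 137 RPKM in P3 DKO against 12.7 and 6.78 RPKM in P3 Ctrl. Plvap stood at 7.197 and 9.38 RPKM in P3 DKO and 15.03 and 16.7 RPKM in P3 Ctrl. The Klk1b24 difference did not pass without either P7 Ctrl library, P7 DKO replicate 1, either P3 Ctrl library or P3 DKO replicate 2 (adjusted p = 0.093 to 0.166), nor under 8 other settings: the pseudocount of 0.1, 3 other filters, 2 smaller sets of libraries, rescaling and centring by length (adjusted p = 0.0508 to 0.148). The Ly6k difference did not pass without any 1 of the 8 libraries other than P7 DKO replicate 1 (adjusted p = 0.0501 to 0.0884), with no filter (adjusted p = 0.0518) or with centring by length (adjusted p = 0.0508).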

How the results depend on the processing

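Calls of named genes kept their direction in each alternative that tested them; 22 were not tested with a filter of 5 RPKM and 2 in the settings that need a transcript length. A limit of 2-fold left 1513 calls (652 higher, 861 lower), and 24 named genes lay under it. Rescaling each library to the same sum gave 1506 higher. Leaving out 1 library at a time gave 2901 to 4638 calls, 1447 to 2347 of them higher and 1454 to 2291 lower; 23 named genes lost their call without some P7 library. For the difference between the ages the same ranges were 1841 to 3483 in all, 1019 to 1873 up and 815 to 1610 down. Its count was 1547 (667 up, 880 down) under the limit of 2-fold, and rescaling gave 622 up and 2989 down. Hbb-b1, which did not pass (log2 change 0.78), stood at 1.67 without P7 Ctrl replicate 1 and turned to -0.11 without P7 Ctrl replicate 2 and to -0.02 without P7 DKO replicate 2. With only the 4 P7 libraries in the fit, 5481 genes were called (2970 higher, 2511 lower). With a replicate block 5800 genes were called (3045 higher, 2755 lower), although deviations matched by replicate number did not correlate between the 2 P7 groups. The cause was not tested. With 2 libraries a group and 23.7 to 27.6 M fragments each, changes below 2-fold and genes near 1 RPKM are the least certain.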

Other observations

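Neighbouring genes moved together in a few places. The 8 runs described here, of 10 tested neighbours each, were chosen out of 11942 after their values were seen, and no test was made. On chromosome 13, from 23684199 to 23934851 on GRCm38, 6 of 10 histone genes of a replication-dependent cluster were higher and none lower (median log2 change 1.21 at day 7 and -0.33 at day 3). The linker histone gene Hist1h1a stood at 3.72 and 3.14 RPKM in P7 Ctrl and 15.4 and 13.5 RPKM in P7 DKO, and Hist1h1c at 2.73 and 3.74 against 14.2 and 12.4 RPKM. Hist1h2aa, a germ cell histone gene, stood at 0.168 and 0 against 3.52 and 2.50 RPKM. Histone genes of such a cluster are alike in sequence, and most of their mRNAs carry no poly(A) tail, so RPKM from an mRNA kit are uncertain for each. On the X, 7 of 10 genes between 153139981 and 155093666 were higher, among them Magea8 (13.5 and 13.6 against 68.4 and 78.0 RPKM) and Magea5 (9.60 and 9.31 against 47.0 and 51.2 RPKM). The 2 other X runs, from 37126795 to 37497623 and from 37571405 to 37901770, held Rhox genes, with 8 of 10 higher and 1 lower in each.

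Runs of falling genes lay on chromosomes 4 and 11. Between 139737062 and 141015984 of chromosome 4, 8 of 10 genes were lower and 1 higher, at a median of -1.72. Beside Pax7 they included Igsf21 (7.69 and 6.57 against 0.0222 and 0.0927 RPKM), the peptidylarginine deiminase genes Padi3 (16.3 and 18.4 against 3.07 and 1.63 RPKM) and Padi4, and the microfibril gene Mfap2 (16.2 and 18.8 against 3.19 and 2.30 RPKM). Padi2, between them, stood at 3.30 and 3.37 against 1.79 and 2.64 RPKM and did not pass. On chromosome 11, 7 of 10 genes between 70130329 and 70440828 were lower, among them the macrophage lectin gene Mgl2 (11.8 and 11.2 against 2.104 and 0.68 RPKM), its neighbour Clec10a and, farther along, Bcl6b. On the same chromosome, 6 of 10 genes between 94644996 and 95146263 were lower, including Dlx3 and its neighbour Dlx4 (5.76 and 5.37 against 0.296 and 0.129 RPKM), and 7 of 10 between 117077348 and 117839908.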
